A study of Schizosaccharomyces pombe with 4 samples.

Results

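The genes described here are tgs1, thg1, cbc3, kin17 and trm141 of fission yeast (Schizosaccharomyces pombe), 5 of the 3848 coding genes that the arrays measured and of 5113 annotated. They were chosen by a measured value, a high ratio of Cy3 to Cy5 signal over the open reading frame (ORF), so their Cy3 over Cy5 values are given as a description, with no test. The listing carries the name cap and tRNA modification genes. By their annotation tgs1 is an RNA methyltransferase, cbc3 an RNA cap binding protein and thg1 a tRNA guanylyltransferase. There trm141 is an actin binding methyltransferase and kin17 a KIN17-like protein. Of these product names only those of cbc3 and thg1 mention a cap or a tRNA.

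All 4 arrays form 1 group. They hold DNA of wild-type cells whose Cdk11 carries an HA tag, grown in YES medium at 32 °C and fixed in 3% formaldehyde for 10 min, precipitated with a monoclonal anti-HA antibody and set against input DNA of the same cells on 2-colour Agilent tiling arrays. Cdk11 is a cyclin-dependent kinase that works with Cyclin L, and the arrays ask where on the genome the tagged kinase lay. Replicates 1 and 3 are duplicate arrays of the first immunoprecipitation and replicates 2 and 4 of the second, so n = 2 throughout. No untagged strain, mock precipitation or dye swap was analysed here.

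Capped transcripts of RNA polymerase II carry a methylated guanine at their start, and Tgs1 adds further methyl groups to the caps of small nuclear and nucleolar RNAs and, in fission yeast, of telomerase RNA. Cap-binding proteins hold the cap of nuclear transcripts and hand them on to processing and export. Transfer RNAs are trimmed, spliced and modified after transcription: in Saccharomyces cerevisiae Thg1 adds a guanine to the start of histidine tRNA, and fission yeast Trm141 methylates a cytosine of tRNA. The human relative of kin17, KIN, is a zinc finger protein that binds DNA and RNA.

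The introns shown here belong to the 4 of these genes that have any, and each lies wholly or partly under a probe discussed with the profiles along the genes. Intron 1 of tgs1 lies under another such probe and is not shown. The introns shown were chosen after the values had been seen. The letters are those of the ASM294v3 assembly, read in the direction of the gene from the 5′ to the 3′ end, and the capitals mark the GT and AG at the ends of each intron. The tgs1 intron lies at I:842054-842125 (minus strand), the cbc3 intron at III:697753-697874 (minus strand), the thg1 intron at III:849232-849327 (plus strand) and the trm141 intron at II:1863827-1863898 (minus strand).
tgs1 intron 2: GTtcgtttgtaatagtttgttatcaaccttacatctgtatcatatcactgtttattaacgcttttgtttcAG
cbc3 intron 2: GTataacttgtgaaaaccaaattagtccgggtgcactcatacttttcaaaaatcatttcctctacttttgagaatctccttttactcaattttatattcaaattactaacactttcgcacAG
thg1 intron 2: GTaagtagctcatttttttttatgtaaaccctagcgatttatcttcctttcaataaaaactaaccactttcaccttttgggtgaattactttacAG
trm141 intron 1: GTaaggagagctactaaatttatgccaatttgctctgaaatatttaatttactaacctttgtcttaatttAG
All are rich in A and T, at 69.4% in tgs1, 68.0% in cbc3, 68.8% in thg1 and 72.2% in trm141.

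The promoter of cbc3 is shown because the upstream probe within it was Cy3-high on every array. It runs over the 200 bp before the annotated transcript start in ASM294v3 (III:698437-698636, minus strand), with the bases under the array's probe in capitals.
cbc3 promoter: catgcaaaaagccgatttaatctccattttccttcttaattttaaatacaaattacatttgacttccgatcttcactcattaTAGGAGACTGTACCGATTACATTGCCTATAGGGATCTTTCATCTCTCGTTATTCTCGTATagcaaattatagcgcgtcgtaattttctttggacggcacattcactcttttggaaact
Of 4 short motifs searched on both strands, TATAAA was in 0 of the 5 genes' promoters and in 37.0% of all 5112 promoters of this length. A run of 6 A, AAAAAA, was in 3 of the 5 and in 50.6% of all. The 200 bp of thg1 and trm141 overlap the annotated neighbours SPNCRNA.7059 and tam8. With these cut at such neighbours, the run remained in tgs1 alone of the 5. CAGTCACA was in none of the 5 and in 2.58% of all, and ACGCGT was in none of the 5 and in 2.31% of all.

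Throughout, a value is log2(Cy3/Cy5) of the spot intensities, centred so that 0 is the median probe of an array. The labels give Cy3 to the precipitated DNA and Cy5 to the input, but the ratios the authors deposited have Cy5 on top, so the direction of enrichment is not settled. A positive value therefore means only higher in Cy3, and the same values with the sign turned are the ratio in the authors' direction. Median intensities were 5097 to 6341 in Cy3 and 2889 to 4862 in Cy5, and the 42707 genomic probes had a median spacing of 265 bp. From 1.00 to 16.3% of spots were left out per array as poor, most on replicate 1. ORF values of duplicate arrays correlated at r = 0.303 and 0.447, and arrays of different immunoprecipitations at r = 0.314 to 0.448, over genes of the same arrays.

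The cap methyltransferase gene tgs1 (SPAC2G11.15C; coding span I:841572-842490, minus strand) had 3 ORF probes. Its ORF value was 0.60 on replicate 1, 0.95 on replicate 2, 0.94 on replicate 3 and 0.59 on replicate 4. One array of each immunoprecipitation was high and the other lower, so both immunoprecipitations gave 0.77, and the mean was 0.77 ± 0.004 (SD, n = 2), a 1.71-fold excess of Cy3. The small SD hides a range of 0.59 to 0.95 between single arrays. In raw intensity, its probe at I:841658-841715 gave 5535, 5385, 6949 and 7027 in Cy3 on replicates 1 to 4, against 1401, 1768, 2966 and 4030 in Cy5. Cy3 was the brighter channel there on every array, as it was for the median probe.

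The cap-binding protein gene cbc3 (SPCC16C4.16C; III:697605-698399, minus strand) was the most uneven between duplicate arrays. Its ORF value over 3 probes was 0.33, 0.55, 1.23 and 0.75 on replicates 1 to 4. The lowest and the highest of these, replicates 1 and 3, come from the same immunoprecipitation. Averaged, the first immunoprecipitation gave 0.78 and the second 0.65, for a mean of 0.71 ± 0.09 (SD, n = 2) or 1.64-fold.

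For the tRNA genes, thg1 (SPCC63.07; III:848634-849629, plus strand) gave 0.72, 1.05, 0.49 and 0.54 on replicates 1 to 4 over 4 ORF probes. The immunoprecipitations gave 0.72 and 0.80, for a mean of 0.76 ± 0.05 (SD, n = 2) or 1.69-fold. The coding span is overlapped on the other strand by the annotated non-coding RNA SPNCRNA.7059, and array probes of genomic DNA do not tell the strands apart. The highest of the 5 genes was trm141 (SPBC3H7.11; II:1863368-1864186, minus strand), with 1.00, 0.93, 0.52 and 1.12 over 3 probes. Replicate 3 was low while the other 3 arrays lay close together, and the immunoprecipitations gave 0.76 and 1.03, a mean of 0.89 ± 0.19 (SD, n = 2) or 1.86-fold.

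The zinc finger protein gene kin17 (SPBC365.09C; II:2510785-2511699, minus strand) gave 1.05, 0.83, 0.99 and 0.36 on replicates 1 to 4. Its immunoprecipitations differed most among the 5 genes, at 0.90 and 0.53, with a mean of 0.71 ± 0.26 (SD, n = 2) or 1.64-fold. Not all of its 4 ORF probes entered on each array: 2, 3, 3 and 4 were kept on replicates 1 to 4, so the replicates average partly different probes. In thg1, 3 of the 4 probes were kept on replicate 3 and all 4 elsewhere, and the other 3 genes kept every probe.

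**Figure D1:**
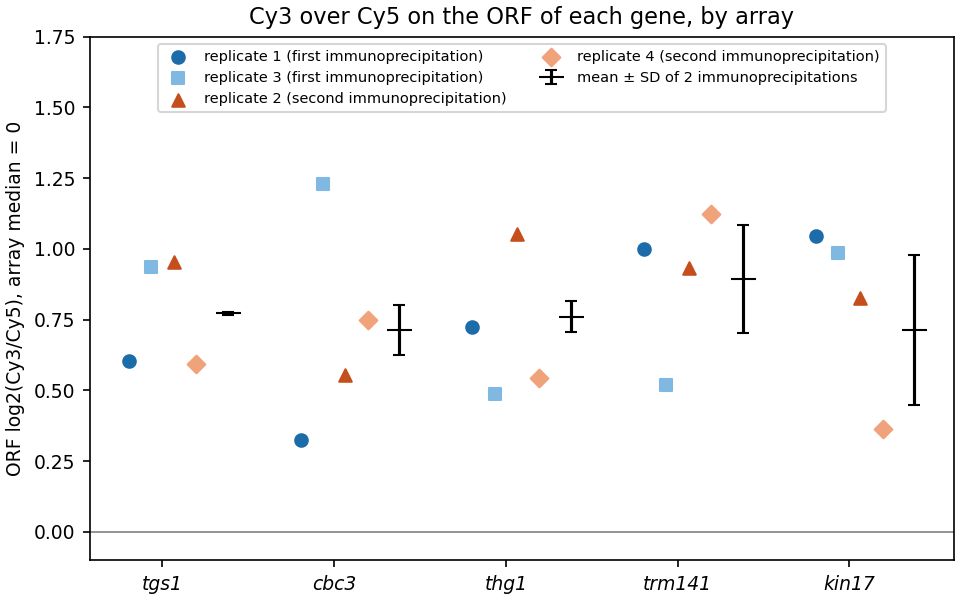
ORF log2(Cy3/Cy5) of the 5 genes (y axis, array median at 0) on each of the 4 arrays, as points by replicate, with the mean and SD of both immunoprecipitations as bars. All 20 points lie above 0, between 0.33 and 1.23, and points of the same immunoprecipitation are often as far apart as points of different ones.

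Ranked from the Cy3 end among the 3848 genes, trm141 was 6th, tgs1 11th, thg1 13th, cbc3 18th and kin17 19th. These ranks are what the listing used. The values just around the lowest of the 5 were 0.72 for atf31 at rank 17 and 0.71 for nbl1 at rank 20, so nothing separates kin17 and cbc3 from their neighbours in the order. Replicate by replicate the standing was less even: all 5 genes were above the 90th percentile of all genes on replicates 2 and 4, but only 3 were on replicate 3 and 2 on replicate 1. That percentile was 0.76, 0.48, 0.59 and 0.35 on replicates 1 to 4, so the same ORF value stands lower on the wider replicate 1. At its extreme, cbc3 was at the 72.5th percentile on replicate 1 and at the 99.4th on replicate 3.

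The high ratios came with low Cy5 more than with high Cy3. Each channel was expressed as the log2 of the ORF's intensity over the array's median intensity. In Cy3, trm141 stood at 0.09 ± 0.07, cbc3 at 0.01 ± 0.13 and tgs1 at -0.01 ± 0.08 (SD, n = 2), at the 46.8th, 32.5th and 30.0th percentiles of all genes. In the same channel thg1 (-0.35 ± 0.09) and kin17 (-0.38 ± 0.09) were lower, at the 4.59th and 3.68th percentiles. In Cy5 all 5 were near the bottom: cbc3 at -0.61 ± 0.12, tgs1 at -0.69 ± 0.18, trm141 at -0.70 ± 0.36, thg1 at -0.95 ± 0.15 and kin17 at -1.09 ± 0.29. The Cy5 percentiles ran from 0.117 for kin17 to 1.91 for cbc3. The 3 genes with middling Cy3 and the 2 with low Cy3 thus share a low Cy5 level.

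Low Cy5 went with a high ratio over the other genes as well. Over the 3848 genes the ORF value correlated with the Cy5 level at r = -0.84 and with the Cy3 level at r = -0.11, a description over genes that share arrays and in which the Cy5 level is part of the ratio. Another 69 genes had a Cy5 level at or under -0.61, the highest of the 5. Their ORF values had a median of 0.51 and ran from -0.15 to 1.02, 68 of them were above 0, and 10 were at or above the lowest of the 5 genes at 0.71. The median Cy3 level was -0.01 in the 5 genes and -0.36 in the 69, a difference that was not tested because both sets were chosen on these values. The 100 genes with the highest ORF values had a median Cy5 level of -0.48 and a median Cy3 level of 0.06, against 0.23 and 0.12 over all genes.

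**Figure D2:**
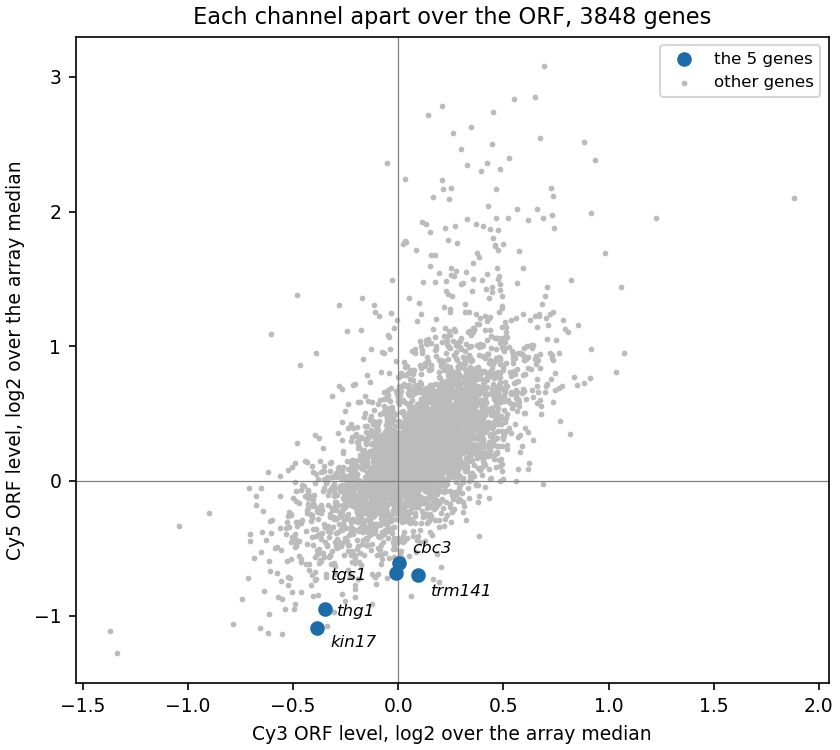
ORF level in Cy3 (x axis) against Cy5 (y axis), each as log2 over the array median and averaged over both immunoprecipitations, for the 5 genes (blue) and the other genes measured (grey). The 5 genes lie along the lower edge of the cloud, with Cy5 between -0.61 and -1.09.

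Fewer spots of the 5 genes were well above background in both channels. In these genes, 59 of 68 ORF spots (86.8%) were well above background, against 93.5% in the other genes measured, and 7.35% were left out as poor, against 4.19%. Of the 63 spots kept, 59 (93.7%) were above 0 and 23 (36.5%) were at least 1 on the log2 scale, against 48.4 and 8.64% of spots in the other genes. Of their 17 ORF probes, 9 exceeded 1.5-fold in both immunoprecipitations (52.9%), against 3.09% of 22014 probes in the other genes. These shares follow from the listing and are no separate evidence. The part of spot quality in the ratios was not tested.

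The size of the ratios changed with the brightness correction. The log ratio fell with spot brightness on every array (r = -0.47 to -0.64 over probes), and a loess fit that takes this slope out lowered the ORF value to 0.59 for trm141, 0.46 for tgs1, 0.41 for cbc3, 0.31 for thg1 and 0.20 for kin17. In rank they then stood at 61, 177, 250, 522 and 975 of 3848. The authors' deposited table, with its sign turned, gave 0.56, 0.44, 0.37, 0.26 and 0.30 for the same genes in the same order. All 5 stayed above 0 under each setting that gave a value, which is no separate evidence in genes chosen as Cy3-high on these arrays. Both kin17 and thg1 had too few probes well above background for a value from such probes alone.

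**Figure D3:**
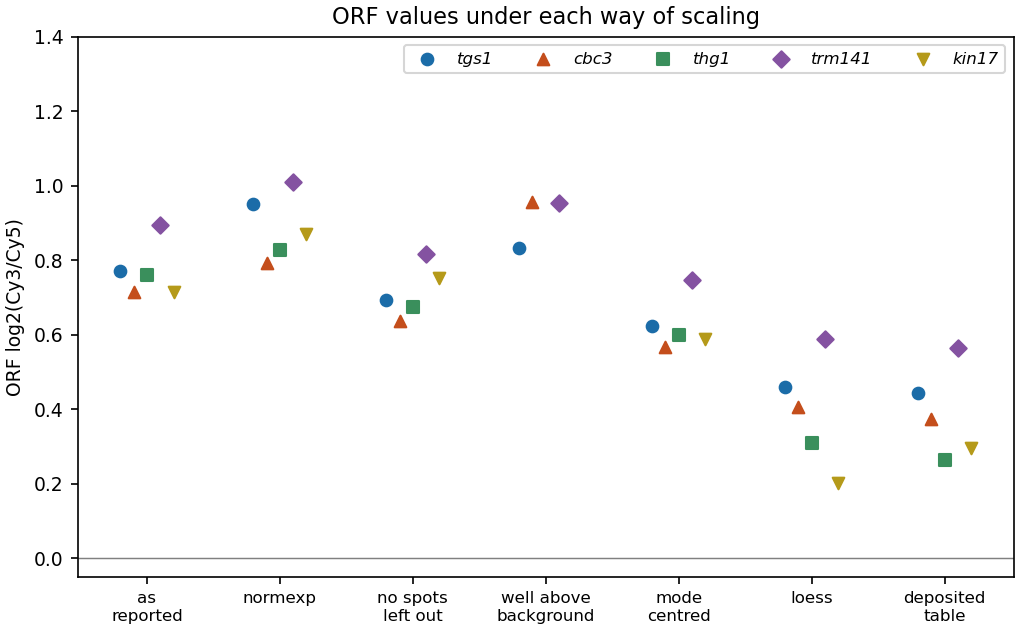
ORF log2(Cy3/Cy5) of each of the 5 genes (y axis) as reported and under 6 other ways of scaling or selecting spots (x axis). All points are above 0, the loess and deposited-table values are the lowest, and thg1 and kin17 are not drawn where only probes well above background were used.

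Along the genes the values were uneven, and the ORF probe with the highest mean sat at a different place in each. In trm141 the probe at II:1863863-1863922, across the edge of intron 1, gave 1.35 and 1.21 in the immunoprecipitations, the highest ORF probe mean among the 5 genes. The probe next to it toward the start codon (II:1864048-1864106) was at 0.11 and 0.64. On single arrays that neighbouring probe ranged from -0.23 on replicate 3 to 1.08 on replicate 4. The labels give DNA fragments of 500 bp, so a lower value at 1 probe does not place an end of the Cy3-high stretch.

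In thg1 the probe with the highest mean, III:849253-849312, lay wholly within intron 2, at 0.74 and 1.37 in the immunoprecipitations. In the first of them the exonic probe III:848638-848696 was higher, at 1.42 on replicate 1 alone. The cbc3 probe III:697829-697888 covered 46 bases of intron 2 and gave 0.98 and 0.88, while the exonic probe III:698228-698287 gave 1.10 and 0.62. In tgs1 the probe over intron 2 (I:842073-842132) and an exonic probe near the stop codon (I:841658-841715) were level, each at a mean of 0.86. The tgs1 probe over intron 1 (I:842268-842327) was the lowest of that ORF, at 0.34 and 0.87 in the immunoprecipitations and a mean of 0.60. With no intron, kin17 had its highest probe mean at its stop codon, where the probe II:2510766-2510825 gave 0.60 and 1.21. In the first immunoprecipitation the probe II:2511081-2511136 was higher, at 1.45, and the means of these probes were close, at 0.90 and 0.87. Lowest to highest, the ORF probe means were 0.60 to 0.86 in tgs1, 0.35 to 0.93 in cbc3, 0.33 to 1.06 in thg1, 0.37 to 1.28 in trm141 and 0.35 to 0.90 in kin17.

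Of the 13 ORF probes in the 4 genes with introns, 5 covered at least 20 bases of intron (38.5%), against 1448 of 10483 (13.8%) in 1862 other genes with introns. The other genes were not matched to these short genes in coding length or number of introns. The 5 intron probes had a median of 0.93 and the other 8 of 0.80, against 0.02 and -0.01 in the other genes. After loess the medians were 0.54 and 0.31 in the 4 genes, and in the other genes the order turned, at -0.03 over introns and 0.07 elsewhere. In the first immunoprecipitation, too, the other genes were lower over introns, at 0.01 against 0.03. Within the 988 genes with both kinds of probe, intron probes exceeded the others by a median of 0.06 in each immunoprecipitation, but after loess the median difference was -0.04. The difference was above 0 in both immunoprecipitations in 32.9% of these genes and below 0 in both in 24.1%. The highest ORF probe was an intron probe in 34.0% of them, where intron probes made up 30.3% of ORF probes on average.

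Beyond the ORFs the genes parted ways. The 500 bp before the start codon was Cy3-high for cbc3 at 1.28 ± 0.62 (SD, n = 2; 1 probe, in capitals in the promoter above), for tgs1 at 0.64 ± 0.38 and for thg1 at 0.59 ± 0.08. The cbc3 probe was above 0 on all 4 arrays, at 1.11, 1.30, 2.32 and 0.38. The nearer tgs1 upstream probe averaged 0.53, and the farther one was kept only in the second immunoprecipitation, at 1.12, and was well above background on 1 of the 4 arrays. Upstream of kin17 and trm141 the values were 0.14 ± 0.31 and -0.06 ± 0.48, no farther from 0 than their SDs.

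The 500 bp after the stop codon gave 1.30 ± 1.24 for kin17 from 1 probe, 0.54 ± 0.37 for trm141, 0.31 ± 0.06 for cbc3, 0.02 ± 0.24 for thg1 and -0.40 ± 0.20 for tgs1 (SD, n = 2). Of the 2 trm141 probes, 1 was kept only on replicates 3 and 4, at 1.89 and 0.53, and the other averaged -0.13. In thg1, 1 of 2 probes entered only the first immunoprecipitation, at -0.83, so its immunoprecipitations average different probes. The kin17 probe was left out on replicate 1, so its value in the first immunoprecipitation, 2.18, is replicate 3 alone. In the second it was 0.42, from -0.33 on replicate 2 and 1.17 on replicate 4. Its mean thus rests mostly on 1 array. Both tgs1 probes after the stop codon were below 0 on average, the only downstream flank of the 5 that was Cy5-high.

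**Figure D4:**
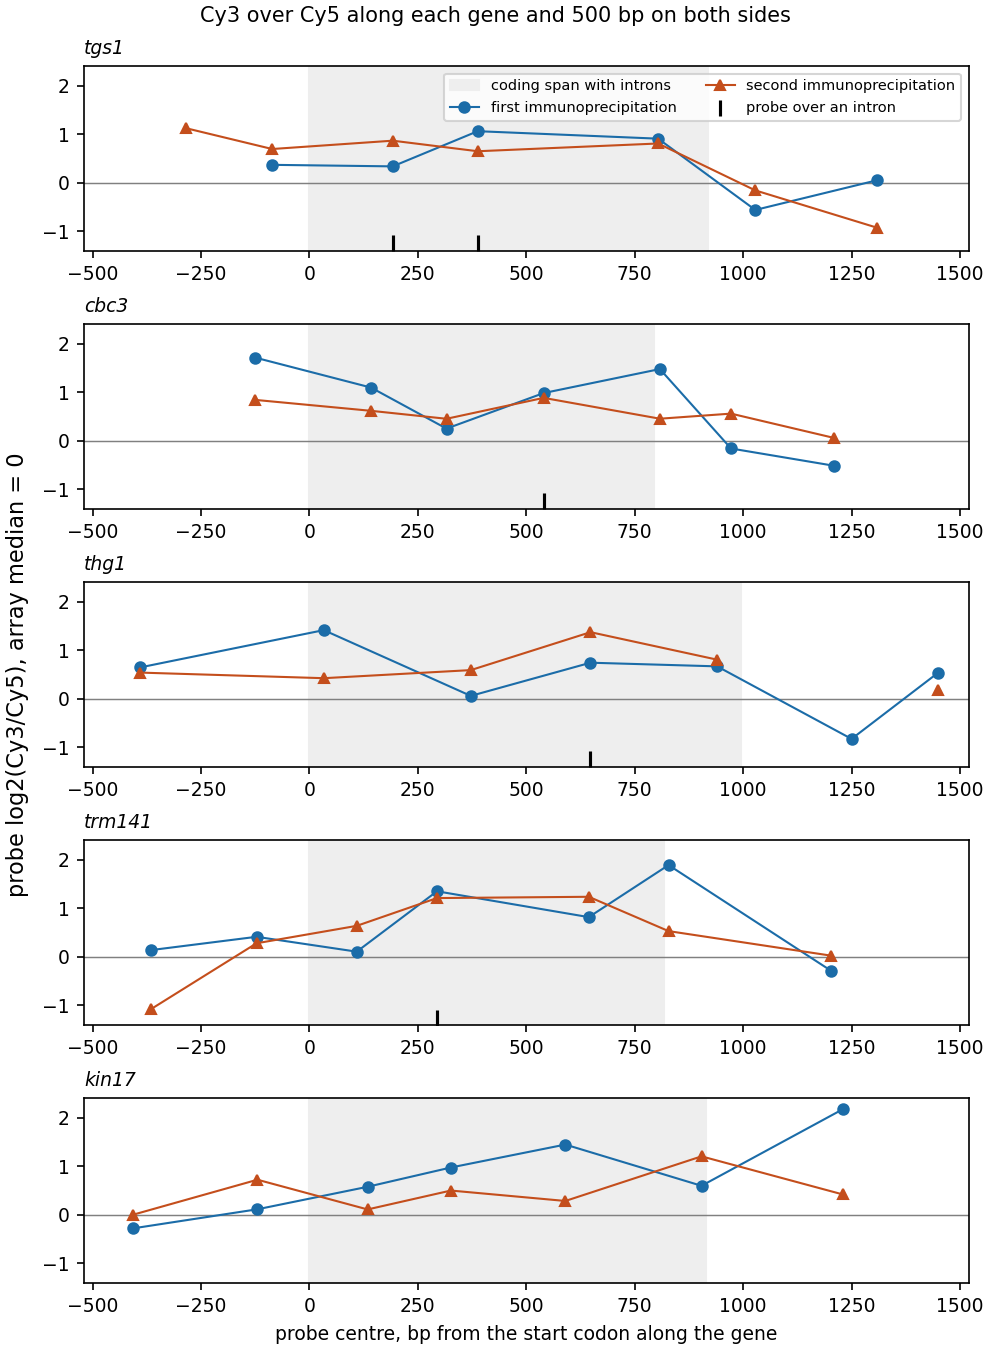
Probe log2(Cy3/Cy5) (y axis) against the distance of the probe's centre from the start codon in bp along the gene (x axis), for the first (circles) and second (triangles) immunoprecipitation. Ticks mark probes over an intron; values inside the shaded coding spans are mostly above 0 and the flanks differ from gene to gene.

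The neighbouring genes within that reach did not pass the test. In limma's test of all 3848 ORFs against the array median, with Benjamini-Hochberg adjustment, 0.39% of genes were called higher in Cy3 and 3.9% higher in Cy5, and 0 of the 6 neighbours with a value were called in either direction (unadjusted p under 0.05 for der1 toward Cy3 and mug123 toward Cy5). In genes, these shares are 15 toward Cy3 and 150 toward Cy5, against 275 and 218 after loess and 39 and 62 in the authors' deposited table. At an unadjusted limma p under 0.05 there were 181 toward Cy3 and 429 toward Cy5 among the 3848 genes. The nearest in value was der1, a Der1 family gene just after kin17 on the same strand, at 0.63 ± 0.36 (SD, n = 2; limma adjusted p = 0.114), with a Cy5 level at the 1.00th percentile. Beside cbc3, rml2, for a mitochondrial ribosomal protein, was at 0.31 ± 0.05 (limma adjusted p = 0.463). The mug123 gene, which starts on the other side of the cbc3 promoter, was at -0.53 ± 0.62 (limma adjusted p = 0.262). The remaining neighbours, taf1 (a TFIID subunit) at 0.18 ± 0.33, atg1 (an autophagy kinase) at 0.20 ± 0.40 and rav2 (a RAVE complex subunit) at 0.12 ± 0.07, lay near the array median, and tam8, beside the trm141 start, had no value.

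With arrays centred on the median, no measured gene of 3 lists of related genes reached the values of the 5, but after loess 16 of the 71 were at or above the lowest of them. That lowest gene, kin17, ranked 19th of all 3848 genes with median centring and 975th after loess. The absence of list genes above it with median centring thus follows from the listing. Whether either count differs from the share over all genes was not tested. Of the cap list (capping, cap-binding and decapping genes, without the 5), 12 of 13 genes were measured and 0 were called in either direction, where the background is 0.39% for Cy3 and 3.9% for Cy5. The unadjusted limma p was under 0.05 for 1 gene in the Cy3 direction and 0 in the Cy5 direction, against 181 and 429 of all 3848 genes. The list's median was 0.05 and 7 of 12 were above 0, against -0.03 and 45.3% over all genes. Highest were bmc1, a Bin3 family gene whose protein is found in fission yeast telomerase, at 0.43 ± 0.27 (SD, n = 2; limma adjusted p = 0.296), and cbc2, a subunit of the nuclear cap-binding complex, at 0.24 ± 0.15 (limma adjusted p = 0.601). Lowest were nhm1, which hydrolyses free cap structures, at -0.13 ± 0.25 (limma adjusted p = 0.819), and dhp1, a nuclear exoribonuclease, at -0.21 ± 0.11 (limma adjusted p = 0.659).

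The tRNA modification list had 46 of 58 genes measured, of which 0 were called in either direction. This list had 2 at an unadjusted limma p under 0.05 toward Cy3 and 1 toward Cy5, against 181 and 429 of all 3848 genes. Its median was 0.02, with 27 of 46 above 0 and a range of -0.58 to 0.47. Highest were trm82, a subunit of the tRNA guanine methyltransferase, at 0.47 ± 0.34 (limma adjusted p = 0.258), and tan1, needed for tRNA cytidine acetylation, at 0.43 ± 0.23 (limma adjusted p = 0.290). The catalytic partner of Trm82, encoded by trm8, was at 0.35 ± 0.17 (limma adjusted p = 0.403). Lowest were cgi121, a KEOPS subunit, at -0.35 ± 0.16 (limma adjusted p = 0.391), and qtr1, the queuine tRNA-ribosyltransferase, at -0.58 ± 0.65 (limma adjusted p = 0.220). The gene trm140, annotated as a tRNA cytosine methyltransferase, was at -0.29 ± 0.04 (limma adjusted p = 0.486). It and trm8 were picked out after their values had been seen.

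The tRNA maturation list (RNase P, end processing, splicing and export) had 13 of 19 genes measured, of which again 0 were called in either direction. This list had 0 at an unadjusted limma p under 0.05 toward Cy3 and 1 toward Cy5, against 181 and 429 of all 3848 genes. Its median of 0.22 was the highest of the lists, with 9 of 13 above 0, and its median Cy5 level was -0.13 against 0.23 over all genes. Highest were trz2, a tRNA end-processing endonuclease, at 0.38 ± 0.11 (limma adjusted p = 0.341), and rpp1, an RNase P subunit, at 0.34 ± 0.40 (limma adjusted p = 0.453). Lowest were pop8, another RNase P subunit, at -0.14 ± 1.03 (limma adjusted p = 0.885), and sla1, the La protein that binds new tRNA ends, at -0.51 ± 0.45 (limma adjusted p = 0.241). With median centring the lowest of the 5 genes, at 0.71, was above every measured gene of the lists, the highest of which was trm82. That separation was lost after loess, where 16 of the 71 list genes were at or above the lowest of the 5 (kin17, 0.20), and in the authors' deposited table, where 8 were (thg1, 0.26). It was also lost without replicate 1, for bmc1 at 0.69, and without replicate 3, for 4 list genes.

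After loess calls were common, at 275 of the 3848 genes toward Cy3 and 218 toward Cy5. Whether the lists differ from that share was not tested. Under this setting, list genes were called in both directions. Toward Cy3 these were the pseudouridine synthase gene pus3 at 0.48 (limma adjusted p = 0.0135), the dihydrouridine synthase gene dus4 at 0.41 (limma adjusted p = 0.0422) and sen54, a tRNA-splicing endonuclease subunit, at 0.56 (limma adjusted p = 0.00225). Toward Cy5 they were qtr1 at -0.52 (limma adjusted p = 0.00529) and sla1 at -0.72 (limma adjusted p = 3.84e-05). The cap list had none under this setting.

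**Figure D5:**
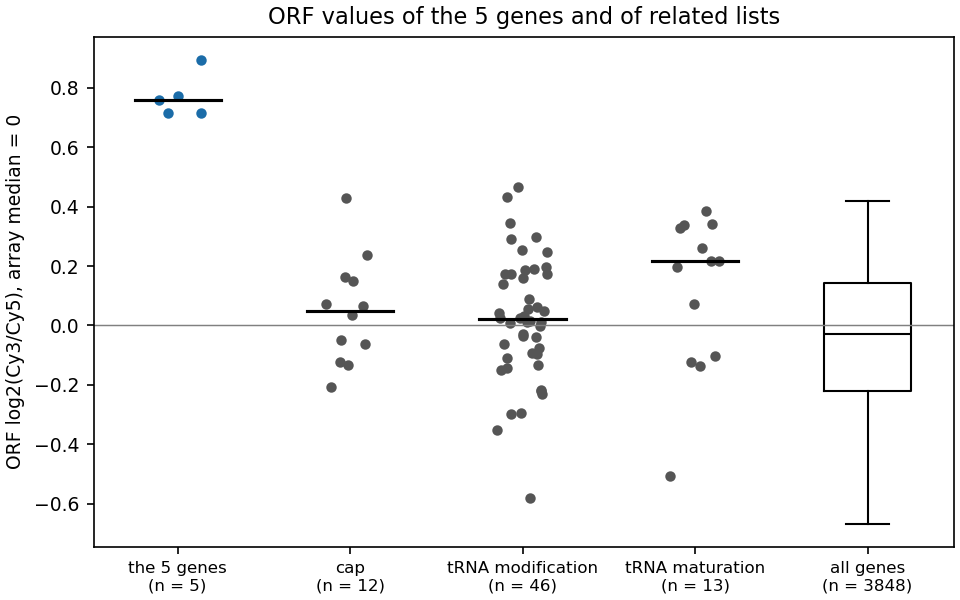
ORF log2(Cy3/Cy5) (y axis) of the 5 genes and of each measured gene of the cap, tRNA modification and tRNA maturation lists as points with their median as a line, beside all 3848 genes as a box of quartiles with whiskers at the 5th and 95th percentiles. With this median centring no list gene reaches the 5 genes, which were listed for their high values. After loess 16 of 71 reach the lowest of them, which then ranks 975th of the 3848 genes.

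Apart from the ratio, the 5 genes are short. Their coding lengths were 720 nt for tgs1, 621 for cbc3, 786 for thg1, 747 for trm141 and 915 for kin17, with a median of 747 against 1248 in the other genes. They hold 3 or 4 ORF probes, against a median of 5, so each ORF value averages few spots. Introns were annotated in 4 of 5 (80.0%), against 48.5% of the other genes, with 3 each in tgs1 and thg1, 2 in cbc3 and 1 in trm141. Of the 100 genes with the highest ORF values, 53.0% had introns.

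Base composition differed among them. The GC content of the coding span was 34.5% in tgs1 and 35.4% in thg1, at the 4.59th and 9.65th percentiles of all genes, 36.8% in kin17 and 37.4% in trm141, but 39.6% in cbc3, at the 59.1st percentile. Over all genes GC content correlated with the Cy5 level at r = 0.53, with the Cy3 level at r = 0.38 and with the ORF value at r = -0.42, as a description over genes of the same arrays. The part of base composition, length or probe number in the high values of the 5 genes was not tested.

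The genes most like the 5 across the 4 arrays were found by the Euclidean distance of their ORF values from the mean of the 5, which was 0.74, 0.86, 0.83 and 0.67 on replicates 1 to 4. Nearest was csn5, for a COP9 signalosome protease subunit, at a distance of 0.331 with values of 0.68, 0.61, 0.75 and 0.49. Next came the carbohydrate kinase gene SPAC16C9.01C (0.336), tho5, for a THOC5-like protein (0.384), swc2, for a Swr1 complex subunit (0.508), and nhe1, for a sodium and proton antiporter (0.588). Their ORF values ran from 0.49 for nhe1 to 0.80 for SPAC16C9.01C. All had low Cy5 as well, at percentiles from 0.273 for SPAC16C9.01C to 3.08 for nhe1.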

How the data were processed

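Per the file headers, the deposited scanner files give for each spot the foreground and background intensity in both channels, the percent of pixels above background or saturated, the squared pixel correlation as a fraction, and a quality mark as a score. The format is that of GenePix; software version, genome build and normalization are not given in these sources. The table of values that the authors deposited is in log2. Compared with each array's scanner values, it equals log2(Cy5/Cy3) after loess (r = 0.996 to 0.999, slopes 1.00 to 1.01), with column medians of 0.00817, -0.00365, -0.0135 and -0.0132 on replicates 1 to 4. Its scale, centring and direction were found this way, and no source used here says why the direction opposes the labels' dyes.

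Values were log2(Cy3/Cy5) of mean foreground intensity, without background subtraction, centred on each array's median. Spots marked poor were left out, unless marked for saturation with a squared pixel correlation above 0.3. A spot was well above background with at least 50% of pixels above the scanner's bound in both channels, as for 29339 probes on all 4 arrays; 185 were saturated on at least 1. Probe positions were compared with ASM294v3 in windows of 100 kb: 107 of 126 matched, none of chromosome I from 3.7 Mb on, and at finer scale the best offset was 2 bp. Coding genes on matched positions numbered 4339, of which 3848 had at least 2 ORF probes with values in both immunoprecipitations. Duplicates were averaged per probe, then probes per ORF.

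Tests used limma 3.58.1 in R 4.3.3 (lmFit and eBayes against 0, two-sided, Benjamini-Hochberg over 3848 genes, calls at 0.05), tested on simulated data first; n = 2, and p-values rest mostly on variance pooled over genes (prior df 10.8, infinite after loess), not on each gene's own spread. The number of arrays limits precision. The genes and lists were chosen with earlier results of these data known. Named genes are the 5, annotated genes within 500 bp of them, the 2 highest and 2 lowest of each list, and the 5 nearest profiles with at least 3 probes. Of 15 cap, 69 tRNA modification and 22 tRNA maturation symbols, 1, 9 and 3 matched no gene. One tRNA modification symbol matched rad31, a SUMO enzyme gene, as a synonym. No protein sequences were used here.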

Additional observations from a re-analysis of the deposited data

Results flagged for a closer look

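The Cy3 level of the trm141 ORF on replicate 2 stood apart from the other arrays. It was -0.0478 (log2 over the array median), against 0.15, 0.13 and 0.14 on replicates 1, 3 and 4, a gap that made up most of the range of the 4 arrays. The Cy5 level on the same array was -0.93, within the range of the others, which ran from -0.99 to -0.28. A gap of this kind is flagged by chance in about 1 of 20 groups.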

How the results depend on the processing

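All 5 genes stayed above 0 in every setting that gave a value. They were chosen as Cy3-high on these same arrays, so this is no separate evidence. In rank from the Cy3 end, kin17 fell to 975 of 3848 after loess and thg1 to 710 of 3864 in the deposited table. Brightness correction by loess gave 0.59 for trm141, 0.46 for tgs1, 0.41 for cbc3, 0.31 for thg1 and 0.20 for kin17, and the deposited table with its sign turned gave 0.56, 0.44, 0.37, 0.26 and 0.30 in that order. With normexp, tgs1 was at 0.95 and thg1 at 0.83. From probes well above background alone, cbc3 was at 0.96 and tgs1 at 0.83, and thg1 and kin17 had no value. With no spots left out, tgs1 was at 0.69 and thg1 at 0.67. Centred on the mode, which lay 0.31, 0.16, 0.10 and 0.03 above the median on replicates 1 to 4, cbc3 was at 0.57, tgs1 at 0.62 and thg1 at 0.60. Leaving out each replicate in turn gave 0.49 to 0.94 for cbc3, 0.63 to 0.86 for kin17, 0.68 to 0.86 for tgs1, 0.63 to 0.89 for thg1 and 0.77 to 1.01 for trm141. The count of genes called higher in Cy3, 15 as reported, was 275 after loess, 39 in the deposited table, 56 with normexp, 48 from probes well above background, 4 with no spots left out and 2 when centred on the mode. It was 30 without replicate 1, 2 without replicate 2, 4 without replicate 3 and 5 without replicate 4, the lowest and highest being 2 and 30. The count higher in Cy5, 150 as reported, was 62 in the deposited table and 92 to 177 with a replicate left out, the lowest without replicate 2. After loess, where 275 of all 3848 genes were called toward Cy3 and 218 toward Cy5, the tRNA modification list had 2 and 1. The tRNA maturation list had 1 each way after loess, and every other list count was 0. Chosen after seeing the data, loess of the intron comparison turned the median within-gene difference from above 0 to -0.04, and a count of list genes at or above the lowest of the 5, 0 as reported, gave 16 after loess, 8 in the deposited table, 1 without replicate 1 and 4 without replicate 3. The cause of these shifts was not tested. No paired analysis was possible because the arrays form 1 group. In the 5 genes 59 of 68 ORF spots were well above background, which limits their values, and where 1 duplicate array is left out its partner alone stands for that immunoprecipitation.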
